A study of Homo sapiens with 6 samples.

Results

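A set of 8 genes of sterol metabolism was examined in cells labelled as SKM-1, a human myeloid leukemia line that arose from a myelodysplastic syndrome (MDS). They were chosen by symbol, with earlier results of these data known. All 8 of 8 were present among the 31142 genes of the deposited table, each under a single Ensembl identifier. They were the transcription factor gene SREBF2, its regulator INSIG1, and 6 enzymes of cholesterol synthesis, HMGCS1, IDI1, FDFT1, SQLE, LSS and DHCR7. The 6 libraries came from 3 samples labelled as carrying U2AF1 with the S34F change, a recurrent mutation of this 3′ splice site recognition factor in MDS, and 3 labelled as carrying wild-type (WT) U2AF1. Per the methods, either form was FLAG-tagged and delivered by a lentivirus with a ubiquitin promoter, GFP and a puromycin resistance gene, in cells that also express their own wild-type U2AF1, and RNA was taken at 96 h. The WT titles also bear a prefix that the paper uses for negative controls, and the methods speak of a vehicle control, so the exact control is uncertain and the genotype in the titles was kept. The paper describes the treatment as done in triplicate and the RNA samples as independent pairs, without saying whether the replicates were separate infections, so p-values measure the spread between these samples, which may be technical.

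Cells make cholesterol from acetyl-CoA through the mevalonate pathway and a long series of sterol conversions in the endoplasmic reticulum. SREBP2, the protein of SREBF2, is a membrane-bound transcription factor that the escort protein SCAP carries to the Golgi when sterols are scarce, where proteases release its active part. INSIG proteins hold SCAP and SREBP2 back when sterols are plentiful, and INSIG1 and most enzymes of the pathway are textbook SREBP2 targets that respond together.

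The table gives FPKM, in which the fragments of a gene are divided by transcript length and by library size, with no read counts. The depth read from low single-exon genes was about 20.5 to 26.1 M fragments per library, and the lowest value of any of the 8 genes was 6.70 FPKM. The cell line label was checked against markers. Of 12 erythroid markers, 10 averaged at least 10 FPKM, with a median of 551.4 FPKM, while 8 of the 11 monocytic markers found in the table averaged under 1 FPKM, with a median of 0.184 FPKM. Of the monocytic genes, S100A8, FCN1 and CSF1R were near 0 in all 6 libraries, while LYZ averaged 15.7 FPKM, CD33 2.44 FPKM and ITGAM 2.42 FPKM. These levels go against the label, since SKM-1 is generally described as monocytic. The label was kept as the submitters gave it, and the identity of the cells is uncertain. The paper also used the line K562, and which line these libraries came from was not tested. U2AF1 itself had 9.24, 9.48 and 9.18 FPKM in S34F replicates 1, 2 and 3 and 8.67, 8.70 and 7.65 FPKM in the WT replicates (log2 fold change 0.14, standard error 0.10, adjusted p = 1 from limma), and gene-level FPKM do not tell the mutant from the wild-type transcript.

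The expression of the 8 genes followed the replicate number more than the U2AF1 form. In 8 of 8 genes, both libraries numbered 3 lay above the other 4 libraries, which was the case for 17.9% of the 10942 genes with a mean of at least 1 FPKM. The genes were chosen with earlier results of these data known, and the comparison by replicate number was made after values were seen. The count is therefore a description and not a test against that share. The mean of the libraries numbered 3 was between 1.27 times (SREBF2) and 2.72 times (INSIG1) that of the other 4. With both libraries numbered 3 on top, S34F and WT must overlap, since each group holds 1 of them. The overlap of the groups in all 8 genes is therefore not a separate result. Of all genes tested, 7.38% had groups that did not overlap. Of the 8 genes, 0 had an adjusted p under 0.05 from limma, as did 0% of all genes tested. This held for an unadjusted p under 0.05 as well, with 0 of 8 against 2.39% of all genes. Among 8 genes, a count of 0 is near such a share. The labels do not say what the replicate numbers stand for, so a shared day, batch or culture cannot be told apart from other differences between these libraries.

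**Figure D1:**
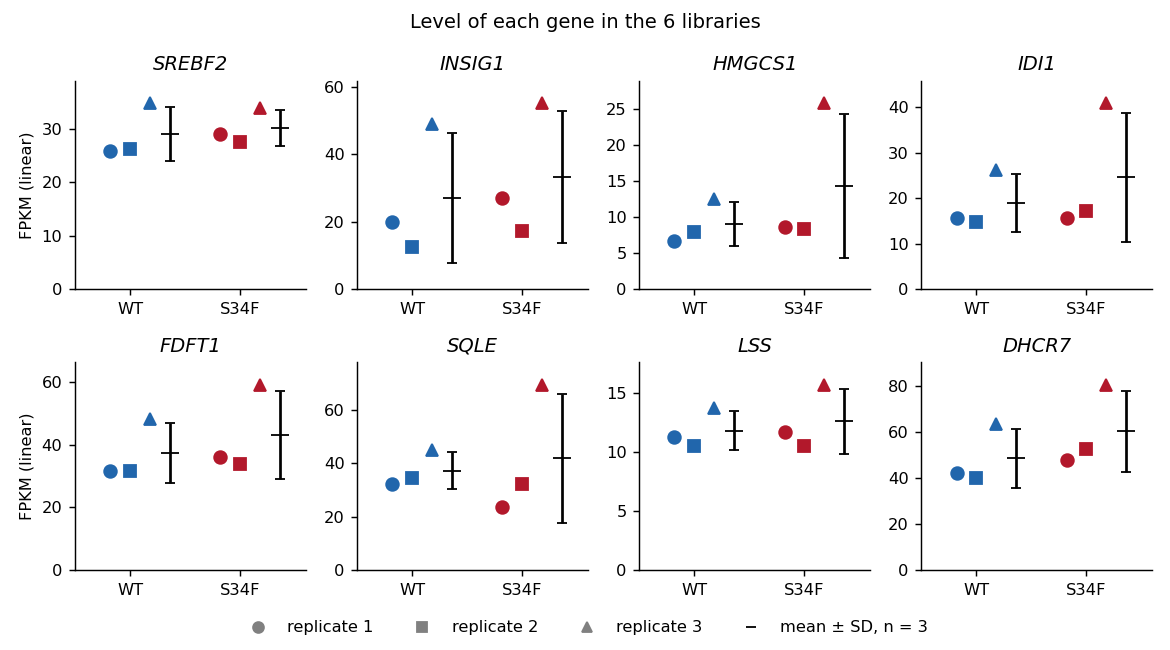
FPKM of each gene (linear axis from 0) in the 3 WT (blue) and 3 S34F (red) libraries, with symbols for the replicate number and a black bar for the mean ± SD of each group (n = 3). In each of the 8 panels both triangles, the libraries numbered 3, lie above the circles and squares of either group.

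Among the regulators, SREBF2 (ENSG00000198911, chromosome 22 from 41833079 to 41907308 of GRCh38, plus strand) had 29, 27.6 and 34 FPKM in S34F replicates 1, 2 and 3 and 25.9, 26.2 and 34.8 FPKM in WT replicates 1, 2 and 3. It was the steadiest of the 8 genes, with a coefficient of variation of 13.2% over the 6 libraries, and the only one for which WT replicate 3 was above S34F replicate 3. Its log2 fold change in S34F was 0.07 with a standard error of 0.15 (limma, unadjusted p = 0.679, adjusted p = 1). An exact two-sided permutation test gave p = 0.6, where 3 against 3 samples allow no p below 0.1, and p between 0.5 and 0.9 for the other 7 genes. INSIG1 (ENSG00000186480, chromosome 7 from 155297776 to 155310235, plus strand), whose protein retains SCAP in the endoplasmic reticulum, had 27.1, 17.2 and 55.1 FPKM in the S34F replicates and 19.8, 12.6 and 49.1 FPKM in the WT replicates. Replicate 3 was 2.49 times the mean of replicates 1 and 2 in S34F and 3.03 times in WT, the widest such step of the 8 genes in WT. Replicate 2 was also below replicate 1 in both groups, so the libraries had the same order within S34F and within WT. The log2 fold change of INSIG1 was 0.34 with a standard error of 0.56 (limma, unadjusted p = 0.567, adjusted p = 1).

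The promoters of the 8 genes were searched in the 250 bases before each RefSeq start (GRCh38.p14), as a description with no test. RefSeq windows were found for 6 of the 8 genes. The search covered 4 motifs on both strands: TCACNCCAC, a consensus of the sterol regulatory element that SREBPs bind, CCAAT, the NF-Y box, GGGCGG, the Sp1 box, and CACGTG, the E-box. The sterol regulatory element was found in 1 of the 6 genes, SREBF2, and in 0.883% of all 35116 windows. The 6 genes had 10 windows, since some have several starts, and 1 of these held the sterol element. CCAAT and GGGCGG were found in 7 and 9 of the 10 windows, with at least 1 window in each gene, and in 32.0% and 42.6% of all windows. Windows of HMGCS1 overlap in part, as do windows of IDI1, so the 10 are not separate. The set of all windows was not matched to these genes in expression or base content. The E-box was found in 1 gene, INSIG1, outside the stretch shown, and in 6.34% of all windows. A match describes letters, and no match says only that these letters are not in the window. The stretch of SREBF2, with the sterol element from 133 to 125 and an inverted CCAAT from 106 to 102 bases before the start, is shown with those of INSIG1 and HMGCS1, which had the largest differences between the libraries numbered 3 and the rest. All are written 5′ to 3′ along the gene, cut where the GENCODE gene begins, with the matches in capitals. The first lies at chr22:41832855-41833078 (plus strand), the second at chr7:155297628-155297775 (plus strand) and the third at chr5:43313513-43313662 (minus strand). The second holds an inverted CCAAT and 3 Sp1 boxes, of which the last 2 share a base, and the third an inverted CCAAT and 2 Sp1 boxes.
SREBF2: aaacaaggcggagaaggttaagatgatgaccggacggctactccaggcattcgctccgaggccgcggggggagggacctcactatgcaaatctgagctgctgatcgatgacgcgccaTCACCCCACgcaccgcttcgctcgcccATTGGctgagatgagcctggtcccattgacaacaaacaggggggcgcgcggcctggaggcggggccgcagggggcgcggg
INSIG1: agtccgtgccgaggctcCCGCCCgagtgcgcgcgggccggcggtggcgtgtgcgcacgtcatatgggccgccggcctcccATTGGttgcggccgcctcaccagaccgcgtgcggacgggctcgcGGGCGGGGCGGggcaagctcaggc
HMGCS1: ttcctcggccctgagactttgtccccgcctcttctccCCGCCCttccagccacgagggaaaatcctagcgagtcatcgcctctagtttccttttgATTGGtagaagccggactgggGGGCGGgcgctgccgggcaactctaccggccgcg

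The early enzymes came next after INSIG1 in the size of this step. HMGCS1 (ENSG00000112972, chromosome 5 from 43289395 to 43313512, minus strand), the cytosolic HMG-CoA synthase that feeds the mevalonate pathway, had 8.60, 8.38 and 25.8 FPKM in S34F replicates 1, 2 and 3 and 6.70, 7.87 and 12.5 FPKM in the WT replicates. S34F replicate 3 was 3.04 times the mean of the other S34F replicates, the widest step in S34F, and WT replicate 3 was 1.72 times its own. HMGCS1 had the largest log2 fold change between the groups, 0.46 with a standard error of 0.44 (limma, unadjusted p = 0.325, adjusted p = 1). Without S34F replicate 3 it was -0.04, with the high WT replicate 3 kept in, and without both libraries numbered 3 it was 0.20. IDI1 (ENSG00000067064, chromosome 10 from 1039152 to 1049170, minus strand), the isomerase that interconverts the basic isoprenoid units, had 15.7, 17.1 and 40.9 FPKM in the S34F replicates and 15.6, 14.8 and 26.3 FPKM in the WT replicates. The 4 libraries numbered 1 and 2 were close to each other, and the libraries numbered 3 averaged 2.13 times their mean. Its log2 fold change was 0.28 with a standard error of 0.39 (limma, unadjusted p = 0.502, adjusted p = 1).

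FDFT1 and SQLE, both on chromosome 8, encode the enzymes that commit the pathway to sterols. FDFT1 (ENSG00000079459, from 11795573 to 11839309, plus strand), the squalene synthase, had 36.1, 33.7 and 59.0 FPKM in the S34F replicates and 31.7, 31.7 and 48.2 FPKM in the WT replicates. Its profile over the 6 libraries was the closest of the 8 to their common profile, with a root mean square difference of 0.0773 in log2 units. SQLE (ENSG00000104549, from 124998497 to 125022283, plus strand), the squalene epoxidase and a rate-limiting step, had 23.8, 32.3 and 69.3 FPKM in the S34F replicates and 32.2, 34.4 and 45.0 FPKM in the WT replicates. S34F replicate 1 was the lowest library and S34F replicate 3 the highest, so that S34F spread on both sides of WT. SQLE had the smallest log2 fold change, 0.03 with a standard error of 0.37 (limma, unadjusted p = 0.929, adjusted p = 1), and FDFT1 had 0.18 with a standard error of 0.26 (limma, unadjusted p = 0.498, adjusted p = 1).

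Of the later enzymes, LSS (ENSG00000160285, chromosome 21 from 46188141 to 46228824, minus strand), which closes the sterol rings to form lanosterol, had 11.7, 10.5 and 15.7 FPKM in the S34F replicates and 11.3, 10.5 and 13.7 FPKM in the WT replicates. Its libraries numbered 3 averaged 1.34 times the other 4, a narrow but complete separation. DHCR7 (ENSG00000172893, chromosome 11 from 71428193 to 71452868, minus strand), which carries out the last step of one branch, was the most abundant of the 8 per length, with 47.8, 52.7 and 80.4 FPKM in the S34F replicates and 42.2, 40.0 and 63.2 FPKM in the WT replicates. Both S34F replicates 1 and 2 lay above WT replicates 1 and 2, and S34F replicate 3 above WT replicate 3. The log2 fold changes of LSS and DHCR7 were 0.08 (standard error 0.17, unadjusted p = 0.662) and 0.30 (standard error 0.25, unadjusted p = 0.264), with an adjusted p of 1 for both from limma. AP002387, a gene on the opposite strand that overlaps DHCR7, had 21.2 to 23.8 FPKM, with a mean of 21.8 in the libraries numbered 3 and 22.3 in the other 4. Whether counting used strand is not given in the sources used here, and the opposite-strand genes overlapping 5 other members had at most 0.768 FPKM in any library.

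By mean level per length in WT, DHCR7 at 48.5 ± 12.8 FPKM (SD, n = 3) was followed by SQLE (37.2 ± 6.85), FDFT1 (37.2 ± 9.49), SREBF2 (29 ± 5.07), INSIG1 (27.1 ± 19.3), IDI1 (18.9 ± 6.42), LSS (11.8 ± 1.65) and HMGCS1 (9.04 ± 3.10). The WT values of neighbours in this order overlapped, except those of IDI1 and LSS. In S34F the means ran from 12.6 ± 2.73 FPKM for LSS to 60.3 ± 17.6 FPKM for DHCR7 (SD, n = 3).

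The difference between the libraries numbered 3 and the other 4 was set against all genes tested, as a description with no test. On the log2(FPKM + 1) scale, on which the differences of low genes are understated, the median over the 8 genes was 0.76 and the median over all genes was -0.03. INSIG1 ranked 41, HMGCS1 80, IDI1 100, SQLE 159, FDFT1 332 and DHCR7 374 among the 10942 genes from the largest difference down, so 6 of 8 were among the top 547 genes, or 5%. LSS ranked 1093 and SREBF2 1403. The step was larger in S34F than in WT for 6 of 8 genes, the exceptions being SREBF2 and INSIG1. It was 1.5 against 0.71 in log2 units for HMGCS1, 1.29 against 0.42 for SQLE and 1.27 against 0.75 for IDI1. With 1 library numbered 3 in each group, there was no test of that difference. The share of all genes tested with a larger step in S34F is not given here, so the 6 of 8 cannot be called particular to these genes. Across 4 ways of rescaling the libraries the count of 8 of 8 was the same, and all genes then had medians between -0.04 and 0.01.

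**Figure D2:**
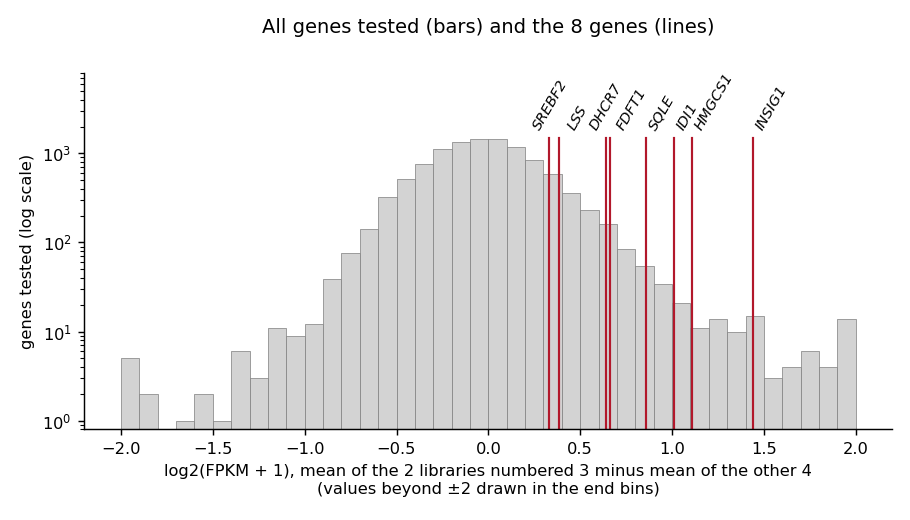
Number of genes tested (grey bars, log axis) by the difference on the log2(FPKM + 1) scale between the mean of the 2 libraries numbered 3 and the mean of the other 4, with a red line for each of the 8 genes. All 8 lines lie to the right of 0, from 0.33 for SREBF2 to 1.44 for INSIG1.

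Other measures also differed in these libraries. Genes of the mitochondrial genome made up 21.9% of the summed FPKM in S34F replicate 3 and 25.3% to 26.9% in the other 5 libraries, so they set S34F replicate 3 apart but not WT replicate 3. The 12 erythroid markers summed to 12198 FPKM in S34F replicate 3 and 13839 and 13963 FPKM in the other S34F replicates, and to 11784 FPKM in WT replicate 3 and 12845 and 12911 FPKM in the other WT replicates. Most of that was globin genes, and the markers were not uniform. HBG1, HBG2, HBA1, HBA2, GATA1 and TFRC were lower in both libraries numbered 3 than in the rest. ALAS2 was higher in both, at 396.3 and 400.8 FPKM against 297.4 to 332.6 FPKM. Replicate 3 had the highest HBZ of S34F but the lowest of WT, and the highest HBE1 of WT. The 11 monocytic markers summed to 13.0 to 29.8 FPKM in S34F, highest in replicate 3, and to 24.0 to 25.9 FPKM in WT. Most of that sum was LYZ, at 8.52, 8.82 and 23.2 FPKM in the S34F replicates. The part of these differences in the sterol gene pattern was not tested, and in bulk RNA fewer cells of a type and less RNA per cell cannot be told apart.

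Other genes of the pathway followed the same libraries. Of 15 further cholesterol synthesis enzymes, all of them tested, 11 had both libraries numbered 3 above the other 4, and the median difference was 0.65 in log2 units. The widest was MSMO1, a sterol C4-methyl oxidase, with 7.53, 8.44 and 34.9 FPKM in the S34F replicates and 6.20, 7.76 and 20.8 FPKM in the WT replicates. CYP51A1, the lanosterol demethylase, had 20.9, 19.8 and 46.1 FPKM in S34F and 18, 18.8 and 25.9 FPKM in WT. The enzymes were not uniform. FDPS, the farnesyl diphosphate synthase, was among the 11 but nearly level, between 43.5 and 46.1 FPKM in all 6 libraries. LBR, a sterol reductase that is also a nuclear lamina receptor, ran the other way, with 18.4, 18.9 and 11.7 FPKM in S34F and 16.3, 9.86 and 6.45 FPKM in WT. The count of 11 was between 9 and 12 under the 4 rescalings.

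**Figure D3:**
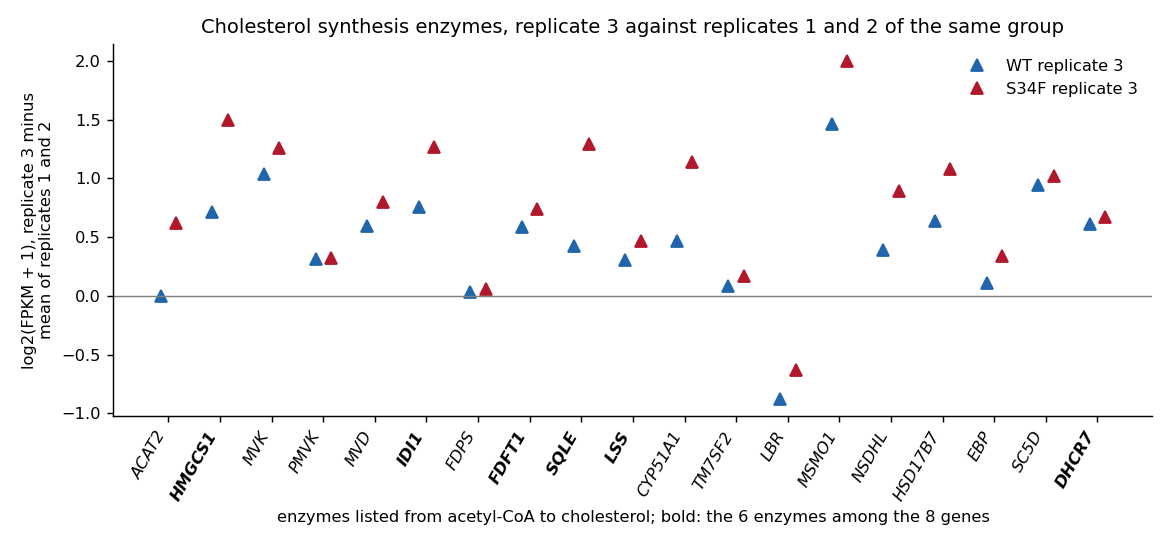
Difference on the log2(FPKM + 1) scale between replicate 3 and the mean of replicates 1 and 2 of the same group, for WT (blue) and S34F (red), over 19 cholesterol synthesis enzymes listed from acetyl-CoA to cholesterol, with the 6 enzymes of the report in bold. Both triangles lie above 0 for most enzymes and highest for MSMO1, near 0 for FDPS, and below 0 for LBR.

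Genes of sterol uptake and trafficking behaved likewise, while neighbouring pathways did not as a group. In 5 of the 5 genes tested for uptake and trafficking, STARD4, NPC1 and NPC2 among them, both libraries numbered 3 lay above the rest. NPC1, which exports sterols from lysosomes, had 4.92, 4.73 and 9.56 FPKM in S34F and 4.91, 4.95 and 7.86 FPKM in WT. NPC2, its soluble partner, had 18.9, 16.8 and 64.3 FPKM in S34F and 29.2, 27.4 and 50.9 FPKM in WT. The same held for 0 of 6 genes of SREBP processing and sterol sensing, 0 of 4 of sterol efflux and storage, 1 of 7 of the isoprenoid branch and 2 of 10 of fatty acid synthesis, against 17.9% of all genes. The 3 genes in these lists that did follow were DHDDS, ACSS2 and the desaturase SCD, with SCD at 101, 99 and 161 FPKM in S34F and 102, 102 and 139 FPKM in WT. SREBF1, which encodes the SREBP that mainly drives fatty acid synthesis, had 18.2, 17.8 and 8.59 FPKM in S34F and 14.4, 15.4 and 15.4 FPKM in WT. FASN, the fatty acid synthase, had 99.5, 98.1 and 60.5 FPKM in S34F and 68.8, 68.6 and 88.1 FPKM in WT, so that both genes were lowest in S34F replicate 3 and not in WT replicate 3. SCAP, which carries SREBP2, was lower in the libraries numbered 3, at 15.1 and 17.5 FPKM against 18.2 to 18.8 FPKM in the other 4. Both libraries numbered 3 lay below the rest in 2745 of the 10942 genes tested, so this was common.

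Of the 5641 other genes with a mean of at least 5 FPKM, the pseudogene CIDECP1 had the closest profile to the mean of the 8 genes over the 6 libraries, with a root mean square difference of 0.0453 in log2 units. HSPH1, ITPKC and ARID3B were also among the 5 closest, at 0.0516, 0.0602 and 0.0664. The median over the genes compared was 0.444. Among the 8 genes themselves the distance to their own mean ran from 0.0773 for FDFT1 to 0.405 for INSIG1. With 6 libraries, of which 2 stand apart, many genes share such a profile, and the likeness is a description.

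The comparison of S34F with WT was then read within each replicate number. The deviations of same-numbered libraries from their group means correlated over all genes, at 0.212, 0.174 and 0.38 for numbers 1, 2 and 3. S34F replicate 2 and WT replicate 1 correlated at 0.197, so numbers 1 and 2 were not told apart. Deviations within a group sum to 0, so a shared step at number 3 also raises the correlations among numbers 1 and 2. The replicate numbers were treated as pairs, with the pairing of numbers 1 and 2 uncertain. S34F was above WT in 7 of 8 genes at each of the 3 numbers. It was above WT in all 3 pairs for 6 of 8 genes, INSIG1, HMGCS1, IDI1, FDFT1, LSS and DHCR7, against 13.3% of all genes tested. The share of all genes at a single number is not given here, while 5973 of 10942 genes tested had a higher mean in S34F. The 8 genes varied together over the libraries, so these counts are not separate results. The differences between S34F and WT were also uneven. At number 3 HMGCS1, IDI1 and SQLE were 2.06, 1.56 and 1.54 times as high in S34F as in WT, while at number 2 their log2 differences were 0.08, 0.20 and -0.09. For LSS the pair numbered 2 differed by 0.0023 in log2 units.

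With the replicate number as a block, limma gave 2 of the 8 an unadjusted p under 0.05, both higher in S34F, against 4.05% of all genes tested in either direction and 1.59% in that direction. These were INSIG1 (log2 fold change 0.34, standard error 0.10, unadjusted p = 0.0192) and DHCR7 (0.30, standard error 0.09, unadjusted p = 0.019), each with an adjusted p of 0.994. For the other 6 genes the unadjusted p in the blocked fit lay between 0.0636 for HMGCS1 and 0.877 for SQLE. Without both libraries numbered 3, DHCR7 was the 1 gene of the 8 with an unadjusted p under 0.05 (log2 fold change 0.28, unadjusted p = 0.0148 from limma), against 16.9% of all genes tested in that fit. The median log2 fold change of the 8 genes was 0.23 against 0.01 for all genes tested. It was -0.07 without S34F replicate 3, where WT replicate 3 stayed in and 7 of the 8 genes turned to a lower mean in S34F, and between 0.04 and 0.44 without each of the other libraries in turn. Without both libraries numbered 3 it was 0.12, and 7 of the 8 genes had a higher mean in S34F, all but SQLE. DHCR7 had a higher mean in S34F in all 6 of these fits, with a log2 fold change between 0.08 (unadjusted p = 0.718 from limma), without S34F replicate 3, and 0.50, without WT replicate 3.

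Among the other genes of the pathway, 1 of the 47 tested had an unadjusted p under 0.05 between S34F and WT, against 2.39% of all genes, and 0 had an adjusted p under 0.05 from limma. It was RNF139, a sterol-responsive ubiquitin ligase of the endoplasmic reticulum, with 10.4, 10.5 and 11.2 FPKM in S34F and 9.10, 9.22 and 8.38 FPKM in WT (log2 fold change 0.24, standard error 0.10, unadjusted p = 0.0428, adjusted p = 1), and with the replicate block its unadjusted p was 0.0556. Its groups did not overlap, and its libraries numbered 3 did not stand apart from the rest in one direction. In the list of 15 cholesterol synthesis enzymes 11 had a higher mean in S34F and 4 a lower one, while 5973 of all 10942 genes tested had a higher one. The median log2 fold change of the 15 was 0.18, against 0.01 for all genes tested, with 0 past an unadjusted p of 0.05 from limma. Most of these enzymes shared the step at number 3, so they are not separate results. Their extremes were SC5D, a late desaturase at 1.41, 1.58 and 4.07 FPKM in S34F and 0.637, 0.673 and 2.18 FPKM in WT (log2 fold change 0.62, unadjusted p = 0.137 from limma), and TM7SF2, a sterol reductase (-0.10, unadjusted p = 0.38). In the blocked fit 2 of the 47 genes had an unadjusted p under 0.05, against 4.05% of all genes. They were SC5D (0.00148) and LBR (0.015), each higher in S34F in 3 of 3 pairs, and 0 genes of these lists had an adjusted p under 0.05.

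In uptake and trafficking the largest negative log2 fold change was -0.31 for NPC2. In the remaining lists, the largest positive and negative values were 0.24 for RNF139 and -0.10 for the SREBP protease gene MBTPS1 in SREBP processing. They were 0.14 for SOAT1, which esterifies cholesterol for storage, and -0.12 for the sterol receptor gene NR1H2 in efflux and storage. In the isoprenoid branch they were 0.17 for PDSS1, of ubiquinone synthesis, and -0.11 for GGPS1, and in fatty acid synthesis 0.28 for the malic enzyme gene ME1 and -0.20 for the desaturase FADS1. Apart from RNF139, the unadjusted p of these genes lay above 0.05 in limma, although the groups of ME1 and FADS1 did not overlap either, as in 7.38% of all genes tested. INSIG2, MBTPS2, LIPA, ABCA1 and ABCG1 had a mean under 1 FPKM and were not tested.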

How the data were processed

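RNA from 6 samples labelled as SKM-1 was sequenced, 3 per U2AF1 form. The authors deposited 1 table of FPKM per gene and library, named as raw counts but with FPKM headings and 100% of nonzero values fractional (tolerance 1e-06). The submitters' processing notes name StringTie and edgeR; versions, build and annotation are not given in the sources used here. The same table holds the authors' own comparison (fold change, p-value, q-value), which was not used. Fixed per-library scaling leaves FPKM open to shifts in a few abundant genes.

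Differences between S34F and WT were fitted with limma on log2(FPKM + 1) (two-sided, mean-variance trend, Benjamini-Hochberg adjustment) over the 10942 genes with a mean of at least 1 FPKM, without a replicate block. The study used a fold change of 1.5 and an unadjusted p of 0.05. Single genes were also tested by exact permutation. Deviations of same-numbered libraries correlated at 0.212, 0.174 and 0.38 for numbers 1, 2 and 3 across genes, so a blocked fit was run beside. S34F replicate 2 and WT replicate 1 correlated at 0.197, so the pairing of numbers 1 and 2 is less clear.

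The members and pathway lists were chosen with earlier results of these data known. Genes named were the members, list genes with an unadjusted p under 0.05 or the largest positive and negative difference of a list, U2AF1, and the 5 genes with the closest profile (root mean square difference of centred log2 values, mean of at least 5 FPKM). Others (MSMO1, CYP51A1, FDPS, LBR, STARD4, NPC1, SCD, SREBF1, FASN, SCAP, DHDDS, ACSS2) were named after their values were seen, as was the comparison by replicate number. Some genes of the lists are counted but not reported by name here. Of the 31142 identifiers, 31002 matched GENCODE 29 (GRCh38), the source of coordinates; promoters came from RefSeq (GRCh38.p14). Depth was approximated from FPKM times length of single-exon genes with 1 transcript. The limma script was tested on simulated data. Fits used limma 3.58.1 in R 4.3.3, and other steps Python 3.11.15 with scipy 1.17.1, pandas 2.3.3, matplotlib 3.10.9 and numpy 2.4.6. The alternatives were other scalings, filters and pseudocounts, the block, each library left out in turn, and both libraries numbered 3 left out.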

Additional observations from a re-analysis of the deposited data

How the results depend on the processing

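FPKM without counts, 3 libraries per group and a wide spread at number 3 limit what these data can separate. The replicate block left 0 genes with an adjusted p under 0.05 and moved the genes with an unadjusted p under 0.05 from 262 to 443, the members among them from 0 to 2 (INSIG1 and DHCR7) and the pathway list genes from 1 to 2 (SC5D and LBR in place of RNF139), and it changed no other call of a member. Without both libraries numbered 3 there were 8 genes with an adjusted p under 0.05, 1846 with an unadjusted p under 0.05 and 183 that also had a fold change above 1.5 (64 with all libraries), with 1 member (DHCR7) and 11 pathway list genes, and SQLE turned to -0.25. The unadjusted count was 904 with no filter and 113 at a mean of at least 5 FPKM, where the count with the fold change was 22; that count was 122 with a pseudocount of 0.1 and 122 with 0.01. The pathway list count was 0 after quantile normalization and 0 without mitochondrial and ribosomal protein genes.

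With each library left out in turn, the genes with an adjusted p under 0.05 ran from 0 to 3, those with an unadjusted p under 0.05 from 162 to 1160, with WT replicate 1 and S34F replicate 3 left out, respectively, those that also had a fold change above 1.5 from 66 to 180, and the pathway list genes from 0 to 5. The log2 fold change of SREBF2 ran from -0.0196 to 0.20, of INSIG1 from -0.10 to 0.86, of HMGCS1 from -0.038 to 0.72, of IDI1 from -0.15 to 0.53, of FDFT1 from -0.0637 to 0.38, of SQLE from -0.40 to 0.35, of LSS from -0.0771 to 0.19 and of DHCR7 from 0.08 to 0.50, each lowest without S34F replicate 3. The means of SREBF2 and SQLE were also lower in S34F without WT replicate 1, and those of INSIG1 and SQLE without WT replicate 2. Leaving out a single library gives the libraries numbered 3 unequal weight in S34F and WT, which by itself moves these values. The cause of the step at number 3 was not tested. All 8 of 8 members had the libraries numbered 3 on top under the 4 rescalings. The other 10 alternatives run for that count (filters, pseudocounts and single libraries left out) could not change it. These 14 alternatives were chosen after seeing the data, and the median difference was between 0.54 and 0.99 in log2 units.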
